A study of Homo sapiens with 10 samples.

Results

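The 9 genes described here (MAP2, MAP1B, TUBB3, SEZ6, SEZ6L, SEZ6L2, KIRREL3, DDN and PCLO) encode proteins of the neuronal cytoskeleton and of the synapse. They were picked by symbol from the 63140 gene identifiers of a table of read counts, and each symbol matched a single identifier. The set was chosen by measured values of these same libraries, since MAP2 was higher and SEZ6, KIRREL3 and DDN were lower with treatment, so member levels against DMSO are given as a description and without a test. The cells were HS-SY-II, an established human line of synovial sarcoma, a soft tissue tumour that carries a fusion of SS18 with an SSX gene. The treated groups were cells kept in 100 nM WA-68 for 12, 24, 48 or 96 h, and the vehicle group was cells kept in DMSO. WA-68 is a PROTAC, a molecule made to bring its target to an E3 ubiquitin ligase for degradation, and its target is BRD9, the bromodomain subunit of a non-canonical BAF chromatin remodelling complex. There were 5 groups of 2 biological replicates, so 10 libraries of poly(A) RNA, all from this single line. When the DMSO cultures were harvested is not in the labels, so treatment and time in culture cannot be told apart, and the 4 comparisons against DMSO share the same 2 DMSO libraries.

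Neurons keep their shape with microtubules built from tubulin and bound by microtubule-associated proteins, with MAP2 found mainly in dendrites and MAP1B mainly in growing axons. Synapses are built from a presynaptic active zone, where large scaffolds hold release sites, adhesion molecules that cross the cleft, and a postsynaptic scaffold. Several of these proteins also work outside neurons, such as dendrin (DDN) and relatives of KIRREL3 at the slit diaphragm of the kidney podocyte.

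Counts assigned to genes ran from 7349744 to 13200051 per library, and 16382 genes held enough counts to be tested, 8 of the 9 members among them. Levels are in CPM, counts scaled by library size and TMM factors to a common total. Replicates differed along the GC content of transcripts, as the log2 difference of replicate 2 over replicate 1 had a Spearman correlation with GC across genes of 0.574 in DMSO, -0.0576 at 12 h, -0.168 at 24 h, -0.294 at 48 h and 0.288 at 96 h, with genes not being independent replicates. It was positive in DMSO and at 96 h, where values are also given without both second replicates, but by size the pair of 48 h differed as much as that of 96 h. The share of mitochondrial transcripts was also highest in replicate 2 of 96 h, at 10.9%, against 6.79% to 8.75% in the other 9 libraries. BRD9 RNA stood at 88.2 and 89.2 CPM at 96 h, against 100.1 and 108 CPM in DMSO. Of 10 markers of synovial sarcoma, 8 reached 1 CPM in every group, with TLE1 at 191.9 to 248 CPM and SSX1 at 41.7 to 57.2 CPM. SSX2 and CTAG1B stayed at or below 0.123 CPM. How reads that map to several genes were counted is not given, so these 2 low values do not show absence. Of 10 mature neuron markers, 3 reached 1 CPM in DMSO and 4 in each WA-68 group. Their sum, mostly RBFOX3, the nuclear antigen NeuN, was 98.9 to 105 CPM in DMSO. It was 74.7 to 79.3 CPM at 12 h, 87.3 to 93.1 CPM at 24 h, 108 to 114 CPM at 48 h and 105 to 125 CPM at 96 h. ELAVL4, GAP43 and NEFM were at 0 counts in all 10 libraries, and of 6 markers of neuronal precursors only NES and SOX2 reached 1 CPM. Glial, leukocyte and endothelial markers summed to at most 0.389 CPM in any library. The part of RBFOX3 and of the other expressed markers in the members' levels was not tested, and in bulk RNA fewer cells with a transcript and less of it per cell cannot be told apart.

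RefSeq promoters (GRCh38.p14, the 250 bases before a transcript start) were at hand for 5 members, MAP2, MAP1B, TUBB3, KIRREL3 and PCLO, as 9 windows. The promoters of MAP2 and PCLO, both higher with WA-68, and of KIRREL3, which was lower, are shown, with CpG dinucleotides set in capitals. That of MAP2 held fewer of them than the median promoter, and those of KIRREL3 and PCLO held more. Each is printed 5′ to 3′ on the gene's strand up to the first base that GENCODE 29 places in an exon. The MAP2 stretch lies at chr2:209579082-209579314 on the plus strand, within the gene and between exons of longer transcripts. The KIRREL3 stretch at chr11:127003461-127003644 and the PCLO stretch at chr7:83162931-83163134 lie on the minus strand just outside the annotated gene.
MAP2: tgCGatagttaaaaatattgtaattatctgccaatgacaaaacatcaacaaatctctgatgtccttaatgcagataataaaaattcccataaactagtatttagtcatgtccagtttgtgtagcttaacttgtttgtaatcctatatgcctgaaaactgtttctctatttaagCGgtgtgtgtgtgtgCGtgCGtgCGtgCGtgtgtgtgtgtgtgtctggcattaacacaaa
KIRREL3: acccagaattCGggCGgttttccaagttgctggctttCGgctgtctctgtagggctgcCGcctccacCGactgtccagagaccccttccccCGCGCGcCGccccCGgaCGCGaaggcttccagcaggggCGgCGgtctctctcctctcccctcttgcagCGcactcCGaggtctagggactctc
PCLO: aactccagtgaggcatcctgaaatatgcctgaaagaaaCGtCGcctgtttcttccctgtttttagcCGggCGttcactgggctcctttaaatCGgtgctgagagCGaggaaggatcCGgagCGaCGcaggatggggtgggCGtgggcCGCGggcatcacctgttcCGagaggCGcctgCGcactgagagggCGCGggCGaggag
The full windows of 250 bases held 6 CpG dinucleotides for this MAP2 start, 23 for KIRREL3 and 26 for PCLO, against a median of 11 over 35116 promoters in the same table and quartiles of 3 and 23. The other MAP2 starts held 8 and 4, those of MAP1B 25 and 11, and those of TUBB3 9 and 39.

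Motifs were searched on both strands of the full windows. The GC box GGGCGG, found in 42.6% of all promoters of that length, occurred 3 times for KIRREL3, once for PCLO and not in any of the 3 windows of MAP2. The windows of MAP1B held the GC box 3 and 2 times, and those of TUBB3 0 and 3 times. The E-box CANNTG, held by 61.8% of promoters, occurred once for KIRREL3, once for PCLO and once for the MAP2 start shown. TATAAA, held by 10.7%, occurred once in each window of MAP1B, and TGANTCA, a motif of AP-1 held by 6.57%, once in a window of TUBB3. Of the parts of the RE1 element that the neuronal repressor REST binds, TTCAGCACC (0.29% of promoters) was in no window and GGACAG (17.2%) was in 1 window each of TUBB3 and KIRREL3. A match is a run of letters and not a bound site.

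**Figure D1:**
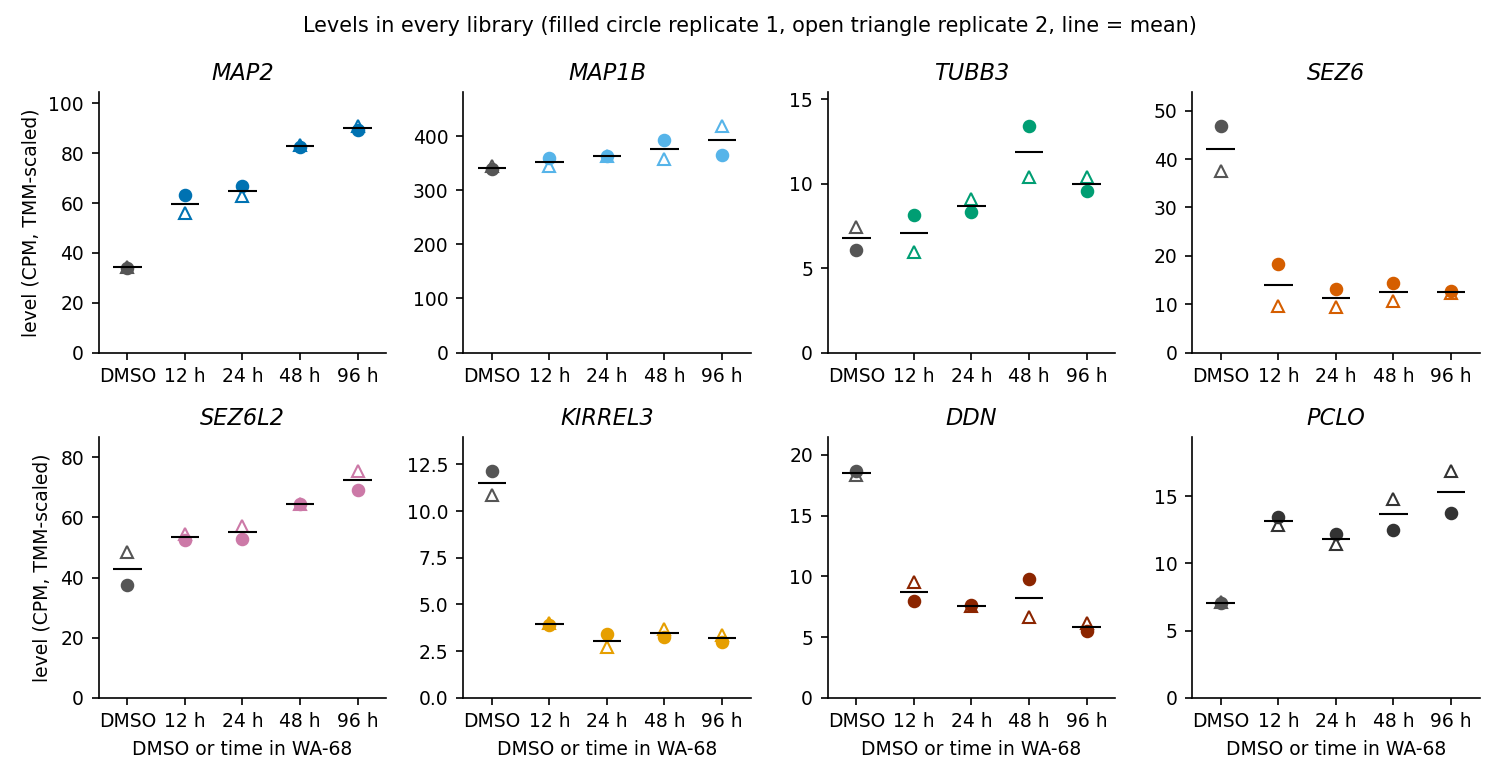
Level of each detected member in every library, in CPM on a linear axis from 0, by group (DMSO and 12, 24, 48 and 96 h of WA-68). Filled circles are replicate 1, open triangles replicate 2 and lines the mean of 2; SEZ6, KIRREL3 and DDN lie lower in all WA-68 libraries than in DMSO, and MAP2, SEZ6L2 and PCLO higher.

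Among the cytoskeleton genes, MAP2 (ENSG00000078018, GRCh38 chromosome 2, 209424058 to 209734118, plus strand), which stabilises dendritic microtubules, had the widest range in fold terms of the 3. It stood at 33.9 and 34.4 CPM in DMSO, 63.2 and 55.8 CPM at 12 h, 66.8 and 62.8 CPM at 24 h, 82.4 and 83.3 CPM at 48 h, and 89.4 and 90.9 CPM at 96 h. All 8 WA-68 libraries lay above both DMSO libraries, and the 48 and 96 h libraries lay above all of the 12 and 24 h libraries. The log2 fold changes over DMSO were 0.80, 0.92, 1.28 and 1.40 at 12, 24, 48 and 96 h (SE 0.099, 0.098, 0.097 and 0.097), which is 2.64-fold at 96 h. MAP1B (ENSG00000131711, chromosome 5, 72107234 to 72209570, plus strand), a microtubule-associated protein of extending axons, was the most abundant member. Its values were 339.8 and 345 CPM in DMSO, 361 and 346 CPM at 12 h, 363 and 365 CPM at 24 h, 394 and 359 CPM at 48 h, and 366 and 419 CPM at 96 h. The WA-68 libraries all lay above DMSO, but the lowest of them, at 12 h, was closer to the upper DMSO library than the DMSO libraries were to each other. On the log2 scale it differed from DMSO by 0.05, 0.09, 0.14 and 0.20 (SE 0.088 at each time), and the value at 96 h was 0.11 without replicate 2 of 96 h and of DMSO.

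TUBB3 (ENSG00000258947, chromosome 16, 89921392 to 89938761, plus strand), the class III β-tubulin used as a neuronal marker, was low, with 52 to 116 counts per library. It stood at 6.06 and 7.45 CPM in DMSO, 8.16 and 5.97 CPM at 12 h, 8.29 and 9.10 CPM at 24 h, 13.4 and 10.4 CPM at 48 h, and 9.55 and 10.4 CPM at 96 h. The 12 h libraries overlapped DMSO, and those of the 3 later times lay above it. The log2 fold changes were 0.09, 0.39, 0.84 and 0.57 with SEs of 0.20 to 0.21, and the value at 12 h was 0.22 without replicate 2 of 96 h and of DMSO. β-tubulins are close copies of each other, and how the authors counted reads that map to several is not given in the sources used here, so its level is uncertain. TUBB3 also shares 1584 exon bases, 35.8% of its exons, with AC092143.1 on the same strand, which held 0 or 1 counts per library. How reads in the shared bases were assigned is not given either. So these low counts do not show that TUBB3 lost no reads there.

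The SEZ6 family encodes membrane proteins with CUB and sushi domains, and in mice it bears on dendrite branching and synapse formation. SEZ6 (ENSG00000063015, chromosome 17, 28954901 to 29006440, minus strand) stood at 46.9 and 37.5 CPM in DMSO, 18.3 and 9.54 CPM at 12 h, 13.2 and 9.39 CPM at 24 h, 14.4 and 10.6 CPM at 48 h, and 12.7 and 12.3 CPM at 96 h. Every WA-68 library lay below both DMSO libraries, with no overlap, and replicate 2 was lower than replicate 1 in every group, with a log2 difference of -0.93 at 12 h. The log2 fold changes were -1.60, -1.93, -1.76 and -1.76 with SEs of 0.19 to 0.20, so SEZ6 was 3.38-fold lower than DMSO at 96 h. SEZ6L2 (ENSG00000174938, chromosome 16, 29871159 to 29899547, minus strand), a relative, stood on the other side. It had 37.7 and 48.3 CPM in DMSO, 52.6 and 54.6 CPM at 12 h, 53.0 and 57.2 CPM at 24 h, 64.4 and 64.4 CPM at 48 h, and 69.3 and 75.4 CPM at 96 h. All WA-68 libraries were above DMSO, and those of 48 and 96 h were above those of 12 and 24 h. Log2 fold changes were 0.33, 0.37, 0.59 and 0.76 (SE 0.11 each), and 0.50, 0.55, 0.77 and 0.88 without replicate 2 of 96 h and of DMSO, since replicate 2 of DMSO was the higher of the pair by 0.36 on the log2 scale. SEZ6L (ENSG00000100095, chromosome 22, 26169474 to 26383597, plus strand) had 0 counts in all 10 libraries. A count of 0 allows up to 3 counts, which is 0.233 to 0.421 CPM per library, for counting error only.

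KIRREL3 (ENSG00000149571, chromosome 11, 126423359 to 127003460, minus strand), also called NEPH2, is an adhesion molecule of the nephrin family that takes part in synapse formation in mice. Its levels were 12.1 and 10.9 CPM in DMSO, 3.91 and 4.02 CPM at 12 h, 3.39 and 2.74 CPM at 24 h, 3.24 and 3.70 CPM at 48 h, and 3.0 and 3.37 CPM at 96 h. The WA-68 libraries formed a narrow band of 24 to 35 counts each, far below the 156 and 92 counts of DMSO. Log2 fold changes were -1.54, -1.93, -1.74 and -1.87 (SE 0.21 to 0.22), and KIRREL3 was 3.66-fold lower than DMSO at 96 h.

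The scaffold genes moved apart from each other. DDN (ENSG00000181418, chromosome 12, 48995149 to 48999309, minus strand) encodes dendrin, a postsynaptic and podocyte protein. It stood at 18.7 and 18.3 CPM in DMSO, 7.94 and 9.54 CPM at 12 h, 7.66 and 7.53 CPM at 24 h, 9.82 and 6.66 CPM at 48 h, and 5.52 and 6.17 CPM at 96 h. All WA-68 libraries lay below DMSO, and the 2 libraries at 96 h were the lowest of the 10. Log2 fold changes were -1.08, -1.28, -1.16 and -1.67 (SE 0.17 to 0.18). The antisense gene DDN-AS1 overlaps 300 bases of DDN exons, 8.0% of them, and stood at 2.62 and 2.53 CPM at 96 h, against 5.52 and 5.2 CPM in DMSO. edgeR called it lower at all 4 times, with a log2 fold change of -1.06 at 96 h (SE 0.26, adjusted p = 0.00741). The libraries were stranded, but the strand setting used in counting is not given in the sources used here, so reads of the 2 genes in the shared bases cannot be told apart.

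PCLO (ENSG00000186472, chromosome 7, 82754013 to 83162930, minus strand) encodes Piccolo, one of the largest scaffolds of the presynaptic active zone. It stood at 7.07 and 7.09 CPM in DMSO, 13.4 and 12.9 CPM at 12 h, 12.2 and 11.4 CPM at 24 h, 12.5 and 14.8 CPM at 48 h, and 13.8 and 16.8 CPM at 96 h. The replicates of DMSO were nearly equal, and every WA-68 library lay above them. Log2 fold changes were 0.89, 0.73, 0.94 and 1.09 (SE 0.17 each), which is 2.13-fold at 96 h.

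**Figure D2:**
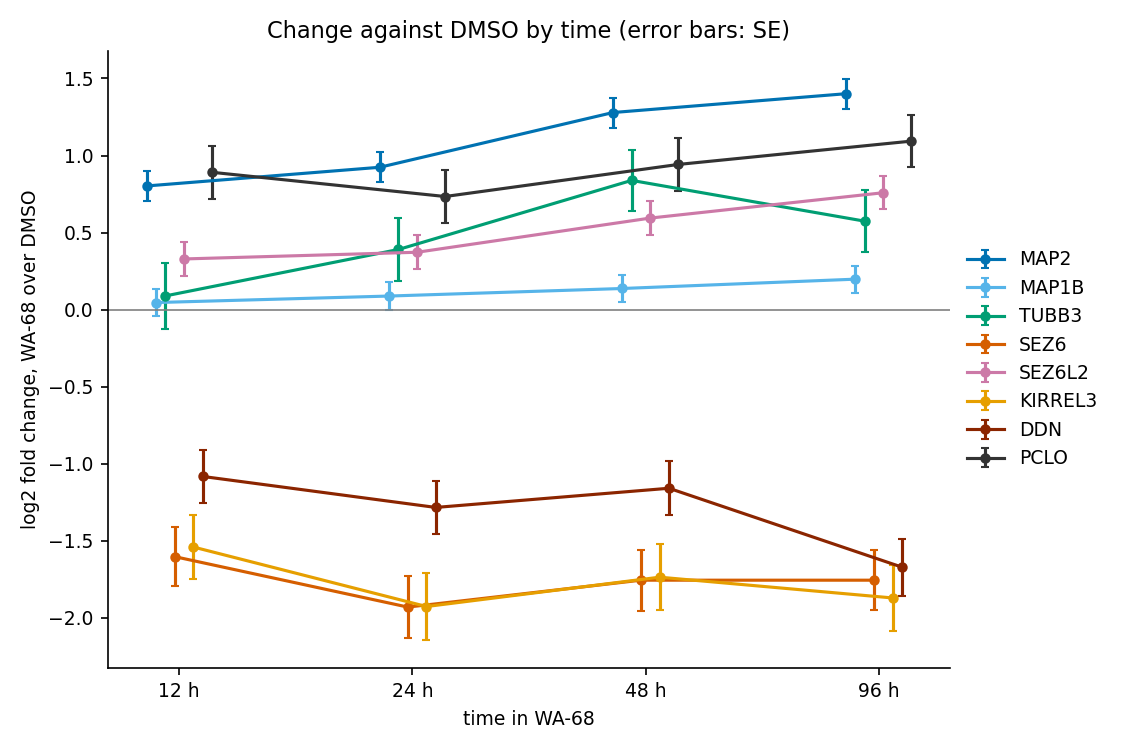
Log2 fold change of each detected member over DMSO against time in WA-68 (points shifted sideways so that they do not hide each other, error bars are 1 SE). SEZ6, KIRREL3 and DDN are at -1.60, -1.54 and -1.08 already at 12 h, while MAP2 is at 0.80, 0.92, 1.28 and 1.40 at the successive times.

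The libraries of MAP2, MAP1B, SEZ6L2 and PCLO stood above DMSO at 4 of 4 times, and those of TUBB3 at 3 of 4. Those of SEZ6, KIRREL3 and DDN stood below it at 4 of 4. The 4 times share the same DMSO libraries, and the share of all tested genes standing apart like this is not given. So nothing is read from these counts. Levels were also divided by exon length (CPM per kb), with bases shared with other genes left in. As the counting rules are not known, the places of TUBB3 and DDN are uncertain. The order at 96 h was MAP1B at 31.1, SEZ6L2 at 17.6, MAP2 at 7.80, SEZ6 at 2.45, TUBB3 at 2.25, DDN at 1.56, PCLO at 0.669 and KIRREL3 at 0.483. In DMSO it was MAP1B at 27.1, SEZ6L2 at 10.5, SEZ6 at 8.24, DDN at 4.93, MAP2 at 2.95, KIRREL3 at 1.74, TUBB3 at 1.52 and PCLO at 0.310. All neighbours in the order at 96 h were apart in both libraries, whereas the ranges of KIRREL3 and TUBB3 in DMSO overlapped. SEZ6 stood in the fourth place at 96 h and the third in DMSO, where its libraries held 9.16 and 7.33 CPM per kb and those of SEZ6L2 9.17 and 11.8.

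The members differ in base composition and length. MAP2, MAP1B and PCLO have transcripts of 42.1%, 44.9% and 42.7% GC and exons of 11559, 12630 and 22873 bases, against medians of 48.7% GC and 4325 bases over the genes tested. TUBB3, SEZ6, SEZ6L2, KIRREL3 and DDN have 59.6% to 62.8% GC and 3749 to 6594 exon bases. The genes lower in WA-68 are all of the GC-rich kind, and those higher are of both kinds. With an offset for GC content in each library, the fold changes over DMSO at 96 h were 1.43 for MAP2, 1.12 for PCLO, 0.75 for SEZ6L2, -1.78 for SEZ6, -1.90 for KIRREL3 and -1.69 for DDN on the log2 scale.

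The WA-68 times were then compared with each other, to ask whether the members went on changing after the first hours. They leave out DMSO, but the WA-68 libraries also entered the choice of the members by the levels of MAP2, SEZ6, KIRREL3 and DDN. So the values of these 4 are a description without a test, and the tests of the others use libraries in which the set was picked. The mean of 48 and 96 h was set against the mean of 12 and 24 h, 4 libraries against 4, by edgeR's quasi-likelihood test over all 16382 genes. In this comparison 3 of the 8 tested members passed as higher and 0 as lower at a Benjamini-Hochberg adjusted p under 0.05, with 2.94% of all tested genes called higher and 2.86% lower, and as MAP2 is among them nothing is read from this count. MAP2 averaged 86.5 CPM late and 62.2 CPM early, a log2 difference of 0.48 (SE 0.066), and the late and early libraries did not overlap. SEZ6L2 averaged 68.4 CPM late and 54.3 CPM early, 0.33 on the log2 scale (SE 0.076, adjusted p = 0.0107), but missed the threshold without replicate 1 of 12 h (0.0674) or replicate 1 of 24 h (0.0785). TUBB3 averaged 10.9 CPM late and 7.88 CPM early, 0.47 on the log2 scale (SE 0.14), with an adjusted p of 0.0496. That call was lost without replicate 2 of 12 h (adjusted p = 0.229), without replicates 1 or 2 of 24 h (0.163 and 0.104), without replicate 1 of 48 h (0.245) and without replicates 1 or 2 of 96 h (0.0600 and 0.101), and also by DESeq2 (0.133) or with library size only (0.0559). Of the mature neuron markers, RBFOX3 was also higher late than early by 0.50 (SE 0.073, adjusted p = 0.000137), while SYP, SNAP25 and INA were not called (-0.0038, 0.15 and 0.53, adjusted p = 0.994, 0.653 and 0.358). RBFOX3 had been called lower than DMSO at 12 h (-0.49, adjusted p = 0.00917) and stood at 0.15 over DMSO at 96 h (adjusted p = 0.368), and its part in the members' late values was not tested.

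**Figure D3:**
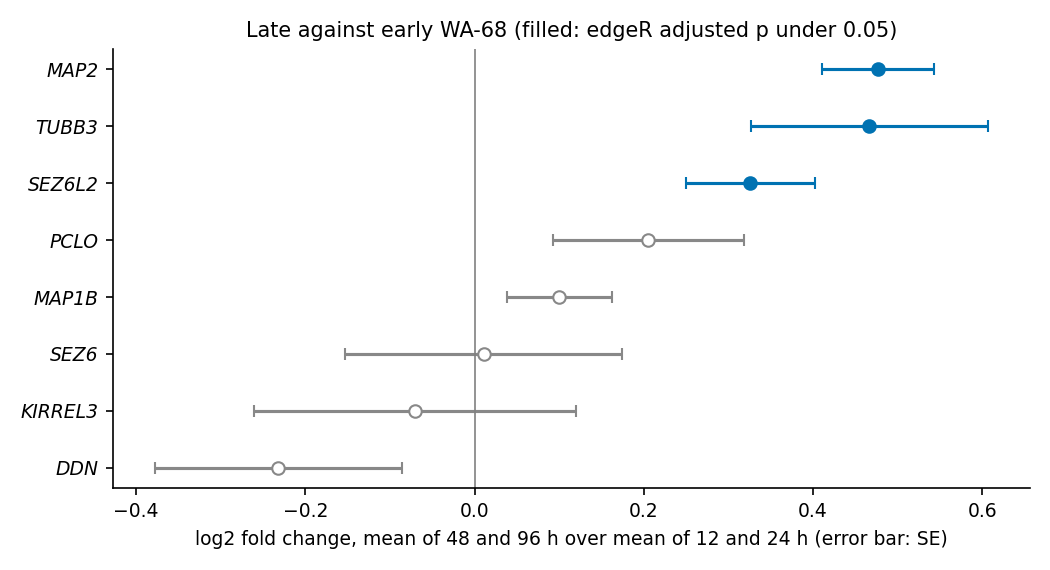
Log2 difference between late (48 and 96 h) and early (12 and 24 h) WA-68 libraries for each tested member, with error bars of 1 SE, 4 libraries against 4. Filled points (MAP2, TUBB3 and SEZ6L2) have an edgeR adjusted p under 0.05, which for MAP2 is a description only, and SEZ6 lies at 0.01.

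The 3 members that were lower than DMSO differed between late and early times by less than 2 SEs. SEZ6 averaged 12.5 CPM late and 12.6 CPM early (log2 difference 0.01, SE 0.16). KIRREL3 averaged 3.33 CPM late and 3.52 CPM early (-0.07, SE 0.19). DDN averaged 7.05 CPM late and 8.17 CPM early (-0.23, SE 0.15). These values do not show that the levels were equal. PCLO differed by 0.21 (SE 0.11, edgeR adjusted p = 0.345) and MAP1B by 0.10 (SE 0.062, adjusted p = 0.419), both short of the threshold.

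At 96 h against 12 h, 2 of the 8 tested members, MAP2 and SEZ6L2, passed as higher. Of all tested genes 2.39% were called higher and 1.74% lower, and as MAP2 is among the 2 members, nothing is read from this count. MAP2 stood at 89.4 and 90.9 CPM at 96 h and 63.2 and 55.8 CPM at 12 h, a log2 difference of 0.60 (SE 0.093). SEZ6L2 stood at 69.3 and 75.4 CPM at 96 h and 52.6 and 54.6 CPM at 12 h, 0.43 on the log2 scale (SE 0.11, edgeR adjusted p = 0.0221). Both genes were higher in 2 of 2 libraries, but the call of SEZ6L2 was lost without replicate 1 of 12 h (adjusted p = 0.235), replicate 2 of 12 h (0.127) or replicate 2 of 96 h (0.132). DDN, at 5.52 and 6.17 CPM at 96 h and 7.94 and 9.54 CPM at 12 h, differed by -0.59 (SE 0.21), and by -0.64 with the GC offset.

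Between successive times edgeR called 0 members. At 24 h against 12 h it called 0% of genes higher and 0% lower, and 0 members had an unadjusted p under 0.05. For 48 h against 24 h the shares were 0.195% higher and 0.562% lower. Of the members that did not choose the set, only TUBB3 had an unadjusted p under 0.05. At 96 h against 48 h the shares were 0.0183% higher and 0.0183% lower, and no such member passed that level. DESeq2 also called 0 members at each of these 3 steps. The largest step of MAP2 was 48 h over 24 h, 0.36 on the log2 scale (SE 0.093).

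Other genes of the same structures were read from 9 lists, 201 genes without the members, of which 132 were tested. The lists were chosen with earlier results of these data known, so their counts are a description beside the share of all genes. At 96 h against DMSO 23 were called higher and 6 lower, 17.4% and 4.55% of those tested, where 6.14% of all tested genes were called higher and 6.86% lower. The counts were 21 higher and 7 lower when replicate 2 of 96 h and of DMSO were left out, and with the GC offset 34 higher and 11 lower. The median log2 fold change of the listed genes was 0.09, against -0.01 over all genes tested. The count of lower genes moved with single libraries, to 12 without replicate 1 of DMSO, 3 without replicate 1 of 96 h and 10 without replicate 2 of 96 h.

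**Figure D4:**
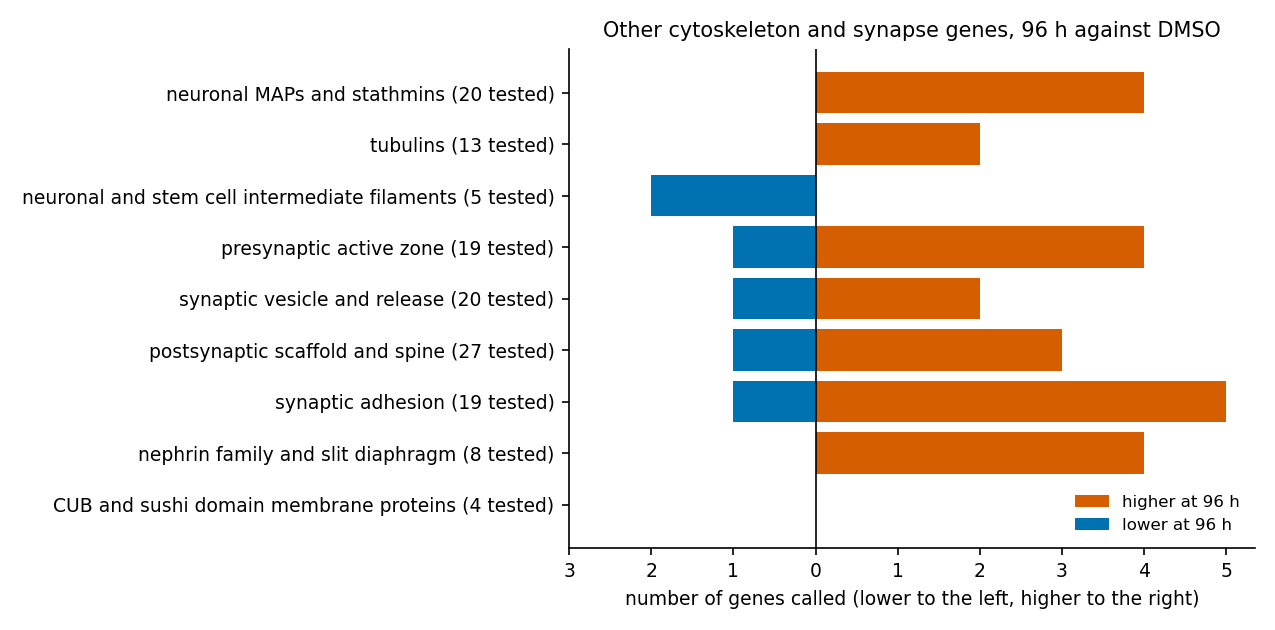
Number of listed genes called higher (right of 0) or lower (left of 0) at 96 h than in DMSO by edgeR at an adjusted p under 0.05, by list, with the number tested in brackets. The microtubule-associated protein list has 4 higher and 0 lower, the intermediate filament list 0 higher and 2 lower. Of all tested genes 6.14% were called higher and 6.86% lower.

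Of 20 tested microtubule-associated proteins and stathmins, 4 rose at 96 h and 0 fell (20% and 0%). Of all tested genes 6.14% were called higher and 6.86% lower. The single lists are small, so nothing is read from their counts here or below. TPPP, which promotes tubulin polymerization, stood at 123 and 124 CPM at 96 h and 63.1 and 74.7 CPM in DMSO (a log2 fold change of 0.85, SE 0.0998, adjusted p = 3.7e-06). The doublecortin-like kinase DCLK2 stood at 18.2 and 16.0 CPM at 96 h and 9.33 and 8.63 CPM in DMSO (0.93, SE 0.16, adjusted p = 0.000369). DPYSL5, a collapsin response mediator, rose by 0.49 (adjusted p = 0.0224), a call lost without replicate 1 of DMSO (0.179), without replicate 2 of 96 h (0.267) and without replicate 2 of 96 h and of DMSO together (0.0713). Of 13 tested tubulins, 2 rose and 0 fell (15.4% and 0%). These were TUBB4A by 0.56 (adjusted p = 0.00914) and TUBB2B by 0.41 (adjusted p = 0.0257), both β-tubulins of the brain. Both lost the call without replicate 1 of DMSO (0.134 and 0.231) and without replicate 2 of 96 h (0.281 and 0.0753), and TUBB2B also without replicate 1 of 96 h (0.0642). Of 5 tested intermediate filament genes, 2 fell and 0 rose (40% and 0%). NES, the nestin of neural progenitors, stood at 87.6 and 83.9 CPM at 96 h and 124 and 127 CPM in DMSO (-0.55, SE 0.094, adjusted p = 0.000263). NEFH, the heavy neurofilament chain, fell by 0.42 (adjusted p = 0.00905), a call lost without replicate 2 of DMSO (0.0624) or replicate 1 of 96 h (0.105).

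On the presynaptic side, 4 of 19 active zone genes rose at 96 h and 1 fell (21.1% and 5.26%). Of 20 vesicle and release genes, 2 rose and 1 fell (10% and 5%). Of all tested genes 6.14% were called higher and 6.86% lower. CACNA2D1, an auxiliary subunit of calcium channels, rose by 0.64 (SE 0.13, adjusted p = 0.0011), at 40.8 and 33.8 CPM at 96 h and 24.6 and 23.5 CPM in DMSO. ERC2, an active zone scaffold of the ELKS family, rose by 1.09 (adjusted p = 0.0117), lost without replicate 1 of DMSO (0.0582) or replicate 1 of 96 h (0.165). PPFIA4, a liprin, fell by 0.61 (adjusted p = 0.00622), lost without replicate 2 of 96 h (0.0711) and without replicate 2 of both 96 h and DMSO, where it stood at -0.34 (0.175). DNM3, a dynamin of vesicle recycling, had the lowest p of the vesicle list and stood at 66.6 and 60.3 CPM at 96 h and 149 and 125 CPM in DMSO (-1.11, SE 0.11, adjusted p = 2.49e-07). The SNARE genes SNAP25 and VAMP2 rose by 0.83 and 0.51 (adjusted p = 0.0102 and 0.0138). Both calls were lost without replicate 1 of DMSO (0.0575 and 0.170) and without replicate 1 of 96 h (0.149 and 0.0880).

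Among postsynaptic genes, 3 of 27 rose and 1 fell at 96 h (11.1% and 3.7%), beside 6.14% and 6.86% of all tested genes. PPP1R9A, the actin-binding spine protein neurabin, stood at 43.7 and 36.8 CPM at 96 h and 23.9 and 18.6 CPM in DMSO (0.91, SE 0.13, adjusted p = 3.55e-05). SYNPO, synaptopodin, rose by 0.50 (adjusted p = 0.00801), lost without replicate 1 of DMSO (0.103) or replicate 2 of 96 h (0.233). CNKSR2, a scaffold of the postsynaptic density, rose by 0.88 (adjusted p = 0.0190), lost without replicate 2 of DMSO (0.117), without replicate 1 of 96 h (0.105) or without replicate 2 of 96 h and of DMSO together (0.118). Of 19 synaptic adhesion genes, 5 rose and 1 fell (26.3% and 5.26%). CADM4, a synaptic cell adhesion molecule, stood at 22.3 and 22.7 CPM at 96 h and 13.0 and 12.9 CPM in DMSO (0.80, SE 0.14, adjusted p = 0.000250). PTPRD, a presynaptic receptor phosphatase, rose by 0.36 (adjusted p = 0.00246), a call lost when only the 96 h and DMSO libraries were fitted (0.0653), and CADM4 kept its call without each of the 10 libraries in turn.

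KIRREL3 was lower, whereas 4 of 8 tested genes of its family and of the slit diaphragm rose at 96 h and 0 fell. That was 50% and 0%, beside 6.14% and 6.86% of all tested genes. KIRREL2, a paralog, stood at 7.58 and 6.46 CPM at 96 h and 3.19 and 3.55 CPM in DMSO (1.09, SE 0.23, adjusted p = 0.00222). PODXL, the podocyte sialoprotein podocalyxin, stood at 8.43 and 8.28 CPM at 96 h and 2.72 and 3.43 CPM in DMSO (1.47, SE 0.23, adjusted p = 0.000109). TJP1, the junction scaffold ZO-1, rose by 0.36 (adjusted p = 0.00377), lost when only the 96 h and DMSO libraries were fitted (0.0686), and SYNPO is in this list too. The other paralog, KIRREL1, stood at -0.16 at 96 h (adjusted p = 0.302) and had been called lower at 48 h (-0.35, adjusted p = 0.023). Of 6 podocyte markers 4 reached 1 CPM in every group (SYNPO, WT1, PODXL and PTPRO), their sum was 317 to 426 CPM at 96 h and 238 to 289 CPM in DMSO, and their part in these results was not tested. Among the 4 tested genes with CUB or sushi domains besides the SEZ6 family, edgeR called 0 at 96 h, while CSMD3, named after its values were seen, was called higher at 48 h (0.94, adjusted p = 0.0186). The most abundant of them, NETO2 and SUSD6, stood at -0.07 (SE 0.12, adjusted p = 0.766) and 0.10 (SE 0.13, adjusted p = 0.686) on the log2 scale.

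Earlier in treatment fewer listed genes were called. At 12 h 4 were higher and 9 lower, with 1.23% of all tested genes higher and 1.92% lower. The 24 h libraries gave 5 higher and 4 lower, with 1.34% and 2.25% of all genes, and the 48 h libraries 11 higher and 9 lower, with 4.01% and 5.38%. The lower genes at 12 h included the postsynaptic scaffolds SHANK1 (-0.68, adjusted p = 0.00163) and DLG4 (-0.41, adjusted p = 0.0408), named after their values were seen. DNM3 was lower at 12 h by 0.92 and at 24 h by 1.04, and NES by 0.55 and 0.60, so these genes stood low from the first time on, as SEZ6, KIRREL3 and DDN did. These early counts rested on single libraries. The higher count at 12 h was 1, 0 and 1 without replicate 2 of DMSO, replicate 1 of 12 h and replicate 2 of 12 h. The lower count at 12 h was 17 and 3 without replicates 1 and 2 of DMSO, 1 and 3 without those of 12 h, 5 and 5 without those of 24 h, and 5 without replicate 2 of 48 h. The higher count at 24 h was 1 without replicate 2 of DMSO, 3 without replicate 1 of 12 h, and 1 and 1 without the replicates of 24 h, and the lower count 16 without replicate 1 of DMSO, 2 without replicate 2 of 24 h, and 7 and 7 without the replicates of 96 h. At 48 h the higher count was 17 without replicate 1 of 96 h, and the lower count 19 and 2 without replicates 1 and 2 of DMSO, 5 without replicate 2 of 12 h, and 4 and 1 without replicates 1 and 2 of 48 h. With library size as the only scaling the split was 4 higher and 3 lower at 12 h and 16 higher and 5 lower at 48 h, and with the GC offset it was 7 higher and 13 lower at 24 h.

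Late against early WA-68, 17 of the 132 listed genes rose and 4 fell, beside 2.94% and 2.86% of all genes, with a median of 0.12 for the listed genes and -0.01 for all. SHANK1 averaged 43.0 CPM late and 28.6 CPM early (log2 difference 0.59, SE 0.084, adjusted p = 9.87e-05), beside 41.1 CPM in DMSO. UNC13A, which primes vesicles at the active zone where Piccolo sits, averaged 17.2 CPM late and 10.5 CPM early (0.71, SE 0.12, adjusted p = 0.000889), beside 15.9 CPM in DMSO. At 96 h SHANK1 and UNC13A differed from DMSO by only 0.02 and 0.15 (adjusted p = 0.941 and 0.605), and at 12 h they lay below it by 0.68 and 0.55 (adjusted p = 0.00163 and 0.0880). The genes that fell were STMN1, TUBB6, TUBA1C and TUBB4B, a stathmin and 3 tubulins that many cell types express, by 0.26, 0.32, 0.28 and 0.26. KIRREL1, SHANK1, UNC13A and these 4 were named after their values were seen. The count of higher genes was 11 without replicate 2 of 24 h and 25 without replicate 2 of 96 h and of DMSO, and the lower count then was 8. Without replicates 1 and 2 the lower count was 0 and 2 for 12 h, 1 and 2 for 24 h, 2 and 1 for 48 h, and 2 and 7 for 96 h.

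The pattern of each member over the 10 libraries was set beside the other members and all genes tested, as a description, since the libraries share 5 treatment groups. MAP2, SEZ6, KIRREL3 and DDN also helped to choose the set by their changes, so correlations among them follow in part from that choice. Log2 CPM of MAP2 had a Pearson correlation of 0.94 with PCLO, 0.92 with SEZ6L2 and -0.93 with DDN. SEZ6 had one of 0.93 with KIRREL3 and 0.85 with DDN. Among the 5 genes whose log2 CPM was most like MAP2 were CD9 (0.990), EPHA5 (0.989), FLRT3 (0.986) and NPTX1 (0.982). Those most like SEZ6 were COX7B (0.971), MSH6 (0.963), NCL (0.960), CXXC5 (0.954) and YWHAG (0.943).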

How the data were processed

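Poly(A) RNA of 10 HS-SY-II libraries was analysed, 2 biological replicates in each of 5 groups. The authors deposited raw read counts per Ensembl gene, as whole numbers with no normalization. The submitters' processing notes name bcl2fastq, FastQC, Trim Galore, cutadapt, STAR, featureCounts and GRCh38; versions, annotation release, strand setting and multi-mapping rule not being given in the sources used here. Of 63140 identifiers, 62541 matched a symbol and 58126 a gene of GENCODE 29, from which positions, exon lengths and transcript GC were taken. Total counts ran from 7349744 to 13200051 per library, which sets the counting precision of low members.

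Genes kept by filterByExpr (16382) were fitted in edgeR 4.0.16 (R 4.3.3, limma 3.58.1) with TMM factors and 1 mean per group, where residual degrees of freedom were 5, prior ones 18.5 and the common BCV, the biological coefficient of variation, 7.17%. Calls are quasi-likelihood tests with a Benjamini-Hochberg adjusted p under 0.05 within a comparison across all genes. SEs are the log2 fold change over the square root of F, and log2 CPM uses a prior count of 2. Each p-value sets the difference between group means against the spread of labelled biological replicates of this single line. That spread is estimated partly across genes, and with 2 libraries a group the number of replicates limits its precision. The model was tested first on simulated counts, which held no GC trend between replicates, unlike these libraries. Late against early it called 91 of 100 genes changed 2-fold and 69 of 100 changed 1.5-fold. At 96 h against 12 h it called 85 and 56 of them. So a gene that was not called may still have changed.

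The members and lists were chosen with earlier results of these data known. Named genes are the 9 members, up to 3 called genes with the smallest adjusted p at 96 h against DMSO from each list (the 2 most abundant where none was called), and the 5 genes most correlated with MAP2 and with SEZ6. Some genes that this rule names are not reported here. Gene sequences before the start come from RefSeq on GRCh38.p14. Alternatives were RLE factors, library size only, 2 other filters, DESeq2 1.42.0, only the groups compared, a replicate block, an offset for transcript GC (spline with 5 degrees of freedom, over 15694 of 16382 genes with a GC value), adjusted p under 0.01 and each library left out. Leaving out replicate 2 of DMSO and of 96 h together was added after the data were seen.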

Additional observations from a re-analysis of the deposited data

Results flagged for a closer look

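Against the same DMSO level, MAP2, SEZ6L2 and TUBB3 stood at different heights at different times of WA-68. MAP2, which helped to choose the set and so is given as a description, was higher at 96 h than at 12 h by 0.60 on the log2 scale, and higher at 48 and 96 h than at 12 and 24 h by 0.48. By the edgeR test of the difference between times, SEZ6L2 was higher by 0.43 at 96 h than at 12 h (adjusted p = 0.0221). It was also higher by 0.33 at the later times than at the earlier (edgeR adjusted p = 0.0107). TUBB3 was higher by 0.47 at the later times (edgeR adjusted p = 0.0496), the least firm of these. The calls of both SEZ6L2 and TUBB3 were lost when some single libraries were left out. The groups hold 2 libraries, too few for a search for single outlying libraries. What sets the members apart in time was not tested.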

How the results depend on the processing

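Replicate numbers did not pair the samples (correlations of deviations from -0.123 to 0.186), and with the replicate block 2 members were called late against early, TUBB3 being lost at an adjusted p of 0.0610. At 48 h against 24 h 1 member, MAP2, was called with only the groups compared. It was also called with the GC offset, and with the replicate block and GC offset. At an adjusted p under 0.01 MAP2 was the only member left at 96 h against 12 h and late against early. As MAP2 helped to choose the set, nothing is read from these calls. With library size as the only scaling the median log2 difference of all genes lay at -0.0256 to 0.0621. With only the groups compared TUBB2B, NEFH, PTPRD and TJP1 lost their calls at 96 h against DMSO (adjusted p = 0.0595, 0.0609, 0.0653 and 0.0686), and by DESeq2 ERC2, SYNPO and CNKSR2 did (0.0659, 0.0656 and 0.0643).

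Counts of listed genes moved more. At 12 h the higher count was 0 at the stricter threshold and 0 to 4 without single libraries, and the lower count 3 with library size only, 5 with DESeq2, 14 with the GC offset, 3 at the stricter threshold, 5 without replicate 2 of 96 h and of DMSO, and 1 to 17 without single libraries. At 24 h the higher count was 3 with DESeq2, 2 with only the groups compared, 1 at the stricter threshold and 1 to 5 without single libraries, and the lower count 13 with the GC offset, 14 with block and GC offset, and 2 to 16. At 48 h the higher count was 17 with the GC offset, 18 with block and GC offset, 19 without replicate 2 of 96 h and of DMSO, and 8 to 17, and the lower count 5 with library size only, 3 with only the groups compared, 2 at the stricter threshold, and 1 to 19. At 96 h the higher count was 13 at the stricter threshold and 16 to 26, and the lower count 11 with the GC offset, 11 with block and GC offset, and 3 to 12. Late against early the higher count was 26 with the GC offset and 11 to 23, and the lower count 7 with the GC offset, 7 with block and GC offset, 1 at the stricter threshold, 8 without replicate 2 of 96 h and of DMSO, and 0 to 7. The cause was not tested.

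All genes called ranged as widely. At 96 h against DMSO 1006 were higher and 1123 lower, 542 to 1517 and 577 to 1697 over the settings. At 48 h 657 and 882 became 270 to 992 and 373 to 1532, at 24 h 220 and 369 became 73 to 517 and 149 to 823, and at 12 h 201 and 315 became 66 to 498 and 117 to 693. Late against early 482 and 469 became 223 to 859 and 189 to 982, and at 96 h against 12 h 391 and 285 became 170 to 730 and 117 to 694. At 48 h against 24 h 32 and 92 became 7 to 168 and 31 to 272, at 96 h against 48 h 3 and 3 became 0 to 55 and 1 to 35, and at 24 h against 12 h 0 and 0 became 0 to 37 and 0 to 41. Without single libraries the higher and lower counts of all genes ran over 685 to 1154 and 847 to 1309 at 96 h against DMSO, 256 to 825 and 164 to 1215 at 48 h, 45 to 321 and 67 to 636 at 24 h, and 34 to 266 and 68 to 533 at 12 h. They ran over 246 to 667 and 154 to 738 late against early, 99 to 585 and 52 to 532 at 96 h against 12 h, 1 to 67 and 0 to 155 at 48 h against 24 h, 0 to 78 and 1 to 40 at 96 h against 48 h, and 0 to 4 and 0 to 1 at 24 h against 12 h. Low counts limit KIRREL3, DDN, TUBB3 and PCLO, and 2 replicates limit every SE.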
